A study of Mus musculus with 6 samples.

Results

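Synaptic vesicle release machinery genes were taken by symbol from the mouse RefSeq protein-coding genes. Symbols of synaptotagmins (Syt), syntaxins (Stx), syntaxin-binding proteins (Stxbp), VAMPs and SNAP-25 with its relatives (Snap23, Snap25, Snap29 and Snap47) were taken. So were those of synapsins, Rab3, RIM (Rims), Munc13 (Unc13), SV2 and complexins (Cplx), and Snap91, Bsn, Pclo, Erc1 and Erc2. This rule found 78 of 21900 protein-coding genes, and 77 could be placed on an mm10 chromosome with a strand. Vamp7 could not be placed. AGO2 chimeric eCLIP, in which UV crosslinking and immunoprecipitation (IP) of AGO2 is combined with ligation of the bound miRNA to its target RNA, had been performed on whole brains of C57Bl/6J mice at postnatal day 0. There was 1 WT library and there were 2 Mov10 Deletion libraries, each with an input library. Mov10 Deletion mice came from a cross of the floxed Mov10 line carrying Emx1-Cre with mice heterozygous for a Mov10 mutation. Emx1-Cre acts in forebrain excitatory neurons, so a whole brain also held cells in which the floxed allele was intact. With 1 WT library there was no replicate check of WT, and the libraries are described side by side with no test between genotypes.

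The proteins of these genes bring a synaptic vesicle to the presynaptic membrane and fuse it there. A vesicle SNARE (VAMP2) zips together with target membrane SNAREs (a syntaxin and SNAP-25), SM and Munc13 proteins guide the assembly, complexins and synaptotagmin hold and trigger it when calcium enters, and RIM, bassoon, piccolo and ELKS proteins build the active zone where this takes place. AGO2 is the protein that carries a miRNA, and nucleotides 2 to 8 of the miRNA, its seed, pair with the target RNA, most often in the 3'UTR, which lowers translation or stability of the mRNA. The brain at birth is rich in miR-124-3p, a miRNA of neurons, and in miR-9-5p, miR-125b-5p and the let-7 family.

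miR-124-3p, miR-466i-5p and miR-466f-3p are named by the deposited target lists. The sequences of other miRNAs on which the results below rest are given from RefSeq (GRCm38.p6), 5′ to 3′ with the seed in capitals, to show which of them share a seed.
miR-9-5p: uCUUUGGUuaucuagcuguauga
miR-125b-5p: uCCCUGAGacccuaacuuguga
let-7c-5p: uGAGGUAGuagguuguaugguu
let-7b-5p: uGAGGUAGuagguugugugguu
miR-103-3p: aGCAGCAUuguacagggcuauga
miR-135a-5p: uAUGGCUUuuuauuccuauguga
miR-219a-5p: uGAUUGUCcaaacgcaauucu
let-7c-5p and let-7b-5p have the same seed. Of the 98 miRNAs assigned to the release machinery genes, 89 had a RefSeq sequence, and these carried 69 different seeds.

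The deposited lists held 359172 AGO2 clusters in WT and 616014 and 616005 in Mov10 Deletion replicates 1 and 2. In the release machinery genes the Mov10 Deletion libraries had 7029 clusters each, and 7018 of these had identical coordinates, while WT shared 1 cluster position with either. Positions in the Mov10 Deletion libraries are therefore not independent of each other. Total depth is unknown. The reads of a cluster were worked out from its deposited ratio and p-value, and the read numbers below are such inferred values before scaling between IP and input. An enriched cluster had a log2 IP over input and a −log10 p of at least 3 each. In WT an enriched member cluster rested on a median of 46 IP reads (lowest 16), whereas the medians were 14 (lowest 9) and 12 (lowest 8) in Mov10 Deletion replicates 1 and 2, so fewer reads sufficed for a call there. In Mov10 itself, the targeted gene, WT had 1 enriched cluster (log2 4.004), and the Mov10 Deletion libraries had none among 9 clusters each (highest log2 2.80 and 2.84). The tissue label was checked by tissue miRNAs over all genes. miR-124-3p took 34.8% to 42.2% of miRNA assignments, whereas miR-122-5p of liver and miR-1a-3p of striated muscle had at most 2 assignments in any library. The endothelial miR-126a-3p had 30, 100 and 27 assignments in WT and Mov10 Deletion replicates 1 and 2, the blood miRNA miR-451a had 5, 23 and 10, and the part of other cell types in the values below was not tested. In bulk tissue such as this, fewer cells of a type and less RNA per cell cannot be told apart.

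Most release machinery genes carried AGO2 clusters, and more of them than of protein-coding genes at large carried an enriched one. Of the members with a cluster, 23 of 70 had an enriched cluster in WT (32.9%, exact 95% interval 22.1 to 45.1), against 20.6% of 13116 protein-coding genes with a cluster. In Mov10 Deletion replicate 1 it was 53 of 71 members (74.6%, 62.9 to 84.2), against 45.4% of genes. Replicate 2 had 42 of 71 members (59.2%, 46.8 to 70.7), against 35.7% of genes. In these 3 libraries the member share was above the gene share and its interval did not reach it. Both Mov10 Deletion libraries had a call in 36 of 71 members (50.7%, 38.6 to 62.8) against 27% of genes, and all 3 libraries did in 21 of 70 (30%, 19.6 to 42.1) against 16.6%.

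Gene size moved with this difference. Members had a median length of 47323 nt and a median of 19 clusters in WT, whereas protein-coding genes had 17531 nt and 3 clusters. Among genes with at least 20 clusters, 13 of 36 members were enriched in WT (36.1%, 20.8 to 53.8), against 41.3% of genes. The same restriction gave 84.8% (71.1 to 93.7) against 75.5% in Mov10 Deletion replicate 1, and 73.9% (58.9 to 85.7) against 63.3% in replicate 2, each gene share lying within the member interval. Per cluster, members were not above the background, with 65 of 3770 clusters enriched in WT (1.72%, 1.33 to 2.19) against 2.06% of clusters in all protein-coding genes. In Mov10 Deletion replicates 1 and 2 the member shares were 3.84% (3.40 to 4.32) and 2.43% (2.09 to 2.82), below the 5.14% and 3.08% of all protein-coding genes. Within 2000 nt of the gene end, where the 3'UTR usually lies, 8.62% of member clusters were enriched in WT (4.91 to 13.8) against 8.5% at large. In the same window the shares were 16.3% (12.04 to 21.4) against 14.6% in Mov10 Deletion replicate 1 and 8.95% (5.76 to 13.1) against 8.32% in replicate 2. Further from the end, 1.39%, 3.37% and 2.19% of member clusters were enriched in WT and Mov10 Deletion replicates 1 and 2, against 1.55%, 4.52% and 2.73% at large. Member clusters lay near the gene end less often, 4.62% of them in WT (3.97 to 5.33) against 7.31% at large, and 3.66% in each Mov10 Deletion library (3.23 to 4.12) against 6.15%. Of the enriched member clusters, 23.1% (13.5 to 35.2), 15.6% (11.4 to 20.4) and 13.5% (8.72 to 19.5) lay there, against 30.2%, 17.4% and 16.6% at large, which the intervals include.

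**Figure D1:**
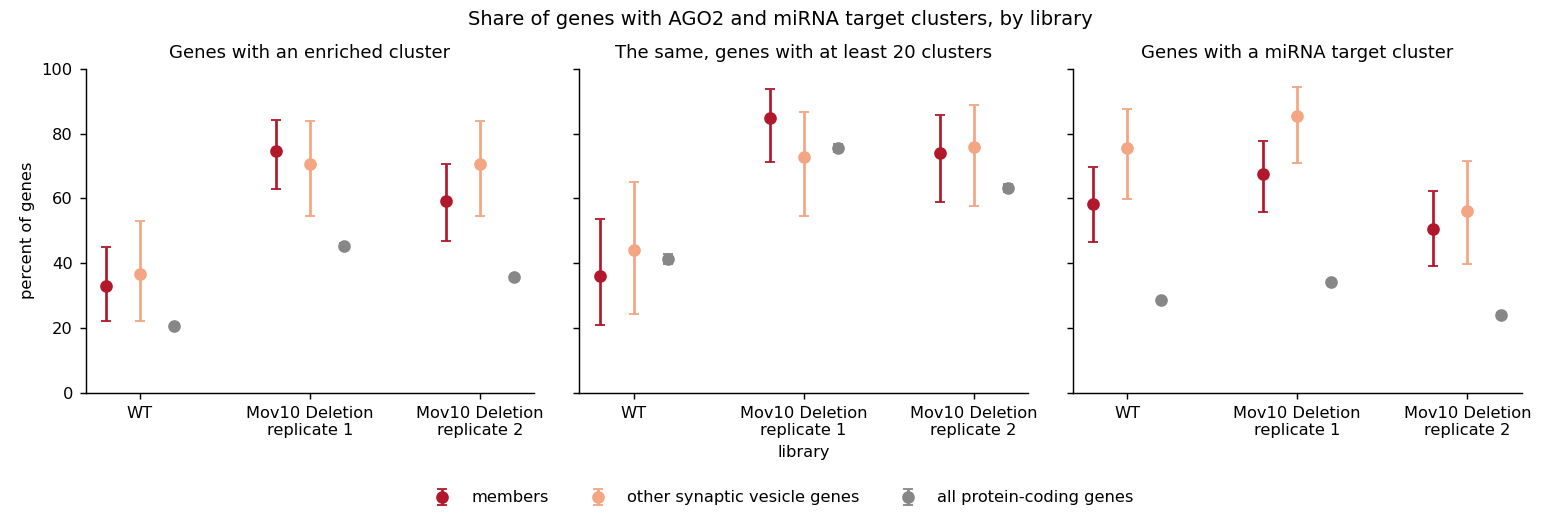
Percent of genes (vertical axis) in each library (horizontal axis) for the release machinery genes, a list of 41 other synaptic vesicle genes and all protein-coding genes. Points are shares and bars exact 95% intervals (counting error only). The left and middle panels count genes with a cluster (all of them, or those with at least 20) and the right panel all placed genes. The red member points stand above the grey gene points in the left and right panels, whereas in the middle panel the bars of the members reach the grey points.

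A miRNA target cluster, the position of chimeric reads that name both miRNA and target, was found in 45 of 77 members in WT (58.4%, 46.6 to 69.6), against 28.5% of all protein-coding genes. Mov10 Deletion replicate 1 gave 52 members (67.5%, 55.9 to 77.8) against 34.1%, and replicate 2 gave 39 (50.6%, 39.0 to 62.2) against 24.1%. In 35 members (45.5%, 34.1 to 57.2) a target cluster was found in all 3 libraries, against 17.1% of genes. Longer genes have more room for such clusters, and the target share was not compared at matched length.

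Of 41 other genes of the vesicle cycle, such as Nsf, synaptophysin and the endocytic dynamins, 15 had an enriched cluster in WT (36.6%, 22.1 to 53.1) and 29 in each Mov10 Deletion library (70.7%, 54.5 to 83.9). Of those with at least 20 clusters, 44%, 72.7% and 75.8% were enriched in WT and Mov10 Deletion replicates 1 and 2. Target clusters were found in 31 (75.6%), 35 (85.4%) and 23 (56.1%) of the 41. The intervals of these genes and of the members overlapped in every library. The other vesicle cycle genes with the most assignments were Apba1, a presynaptic adaptor (11, 12 and 9 in WT and Mov10 Deletion replicates 1 and 2), and Cadps, a factor of dense-core vesicle release (10, 19 and 3). Cask, a presynaptic scaffold kinase, had 9, 11 and 7, Dnm3, a dynamin, had 4, 16 and 6, and Ppfia2, a liprin of the active zone, had 3, 16 and 3.

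The SNAREs that fuse synaptic vesicles had small numbers of enriched clusters, too small to set apart from clusters at large. Over all protein-coding genes 2.06%, 5.14% and 3.08% of clusters were enriched in WT and Mov10 Deletion replicates 1 and 2. Stx1a, the neuronal syntaxin, had 1 enriched cluster of 18 in WT and 2 of 27 in each Mov10 Deletion library. The WT cluster (chr5:135050945-135051078, plus strand, mm10) ended 22 nt before the gene end with a log2 of 3.08 (30 inferred IP reads over 3 input reads). At the same place the best clusters of Mov10 Deletion replicates 1 and 2 had log2 values of 0.94 and 2.06. Snap25 had 3 enriched clusters, all among the 42 of Mov10 Deletion replicate 1. The strongest of them lay 807 nt from the gene end (log2 4.66). Vamp2, the vesicle SNARE, had 1 of 11 in Mov10 Deletion replicate 1 alone (log2 3.54, 20 IP reads over 3). For Snap25 and Vamp2 the Mov10 Deletion replicates thus differed from each other as well.

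Snap25 carried miRNA assignments in every library, 6, 10 and 6 in WT and Mov10 Deletion replicates 1 and 2. Its strongest site, given to miR-466f-3p and centred 1141 nt from the gene end, was found in every library with scores of 44.1, 21.99 and 13.7, although the AGO2 clusters there were at input level (log2 -0.09, 0.05 and -0.24). A further pair of Snap25 sites, both of miR-124-3p and 12598 and 17590 nt from the gene end, was also found in every library. Vamp2 had 3, 6 and 0 assignments in WT and Mov10 Deletion replicates 1 and 2. The score is a value of the authors' list with a lowest entry of 3, and their text does not describe it.

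Other SNAREs act on different membranes. Vamp3, which serves recycling endosomes, had 2, 4 and 2 enriched clusters in WT and Mov10 Deletion replicates 1 and 2. A stretch of 500 nt (chr4:151048458-151048957, minus strand) held 2, 3 and 2 of them, 1153 nt from the gene end, where the best log2 values were 5.06 (79 IP reads over 2), 4.16 (41 over 4) and 4.25 (16 over 2), and miR-124-3p was assigned there in every library. Stx17, the syntaxin of autophagosomes, had 1, 2 and 3 enriched clusters with best log2 values of 4.49, 3.18 and 5.84. Snap29, its partner in that fusion, had 1, 1 and 6. Stx6 of the trans-Golgi network had 1, 5 and 2, while Stx8 and Stx5a of the endosome and Golgi had 0, 1 and 4 and 0, 1 and 1. Over the 19 target membrane SNAREs, 5 genes had an enriched cluster in WT and 12 and 8 in Mov10 Deletion replicates 1 and 2, and over the 7 vesicle SNAREs 1, 3 and 2 genes did. Over all protein-coding genes with a cluster the shares were 20.6%, 45.4% and 35.7%, and these groups are too small to set apart from them.

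Complexins, which clamp the SNARE complex, had their enriched clusters mostly near the gene end. In WT 5 of 29 clusters of the 4 complexin genes were enriched (17.2%), and in Mov10 Deletion replicates 1 and 2 it was 10 (21.7%) and 4 (8.70%) of 46, against 2.06%, 5.14% and 3.08% of clusters in all protein-coding genes. All 5 WT calls were in Cplx1 within 2000 nt of its end, where 8.5% of clusters were enriched at large, and Cplx2 had none among its 15 WT clusters. In Mov10 Deletion replicate 1 all 6 calls of Cplx1 and 2 of 4 of Cplx2 lay in that window (14.6% at large), and in replicate 2 all 4 did (8.32% at large). All complexin clusters lay in Cplx1 and Cplx2, while Cplx3 and Cplx4, known from the retina, had no cluster. Cplx1 had 5, 6 and 2 enriched clusters. A stretch of 426 nt (chr5:108519712-108520137, minus strand) 1158 nt from the gene end held enriched clusters in every library, with best log2 values of 3.79 (49 IP reads over 3), 4.50 (26 over 2) and 5.58 (20 over 1). miR-135a-5p, printed above, was assigned at this place in every library, with scores of 8.33, 5.43 and 3.0. Only in Mov10 Deletion replicate 1 did the site itself lie on an enriched cluster. In WT it touched no AGO2 cluster, and in replicate 2 its cluster was not called (log2 3.06, −log10 p 2.41). The 7-nt seed match of miR-135a-5p, AAGCCAT, occurs 2 times in the 1576-nt 3'UTR of the canonical GENCODE transcript of Cplx1. These matches end 1460 and 324 nt before the transcript end. The assigned sites lay 1131 to 1212 nt from the RefSeq gene end, so neither match had that distance if both ends coincide, which was not checked. By the same measure the match at 1460 nt would fall in the 426-nt stretch. The motif is found in 15.1% of the 7901 canonical 3'UTRs of at least this length when their last 1576 nt are searched.

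Cplx2 had no enriched cluster in WT and 4 and 2 in Mov10 Deletion replicates 1 and 2. Both Mov10 Deletion libraries were enriched at chr13:54382113-54382184 (plus strand), 1739 nt from the gene end, with best log2 values of 4.26 (55 IP reads over 5) and 4.58 (20 over 2). No WT cluster was listed at this place. Cplx2 had 7, 10 and 3 miRNA assignments in the libraries in the same order, and no site of a given miRNA was found in every library.

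Among the SM proteins and their relatives, Stxbp5 (tomosyn), a decoy that binds target SNAREs, had 0, 6 and 1 enriched clusters, and Stxbp6 (amisyn) had 0, 1 and 5. In WT no gene of this group of 7 had an enriched cluster, and 3 and 4 had one in Mov10 Deletion replicates 1 and 2, against 20.6%, 45.4% and 35.7% of protein-coding genes with a cluster, and a group this small cannot be set apart from these shares.

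Of the synaptotagmin clusters, 1.44%, 3.06% and 2.84% were enriched in WT and Mov10 Deletion replicates 1 and 2. Over all protein-coding genes the shares were higher, at 2.06%, 5.14% and 3.08%. Syt1, the calcium sensor of fast release, had 7 enriched clusters of 376 in WT. In Mov10 Deletion replicates 1 and 2 it had 17 and 19 of 676. All 7 WT clusters lay in a stretch of 1392 nt (chr10:108718389-108719780, minus strand), which held 9 and 8 of those in the Mov10 Deletion replicates. This stretch lies 220739 nt before the end of a gene of 513331 nt, far from its 3'UTR. Its best clusters had log2 values of 4.76 (32 IP reads over 1), 5.01 (111 over 6) and 4.04 (55 over 8). A miRNA was assigned there in Mov10 Deletion replicate 1 alone (miR-124-3p), although Syt1 as a whole had 10, 23 and 11 assignments.

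Syt5, a vesicle synaptotagmin, had its enrichment at a single place. It had 6 clusters in WT and 8 in each Mov10 Deletion library, and a cluster at its gene end was enriched in all 3. The log2 values were 4.69 in WT (183 IP reads over 6), 5.30 in Mov10 Deletion replicate 1 (113 over 5) and 5.23 in replicate 2 (63 over 4), on a stretch (chr7:4539778-4539998, minus strand) that ends 13 nt before the gene end. miR-219a-5p, a miRNA known from oligodendrocytes and neurons, was assigned there in every library with scores of 41.9, 40.3 and 17.0. Over all protein-coding genes this miRNA took 0.24%, 0.26% and 0.21% of assignments.

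The 341-nt 3'UTR of the canonical Syt5 transcript (GENCODE vM39) holds the seed match of miR-219a-5p once, 113 nt before the transcript end. The target clusters spanned 10 to 160 nt from the RefSeq gene end, so the match lay within that distance if both ends coincide, which was not checked. The site is shown with the match in capitals, the complement of the seed printed above.
Syt5: cctaccctctgctttGACAATCagctgt
This 7-nt motif, GACAATC, is found in 1.03% of the 16004 canonical 3'UTRs of at least 341 nt when their last 341 nt are searched. A match is a description of the letters and does not show pairing.

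Syt11, which does not bind calcium, had 1, 2 and 3 enriched clusters in WT and Mov10 Deletion replicates 1 and 2, and a miR-124-3p site 963 nt from its gene end in every library (scores 29.9, 20.6 and 10.1). Syt7, the slow calcium sensor, had 2, 7 and 7 enriched clusters. Syt16 (0, 2 and 3), Syt6 (0, 1 and 4) and Syt9 (0, 1 and 2) had none in WT. Syt4 was the opposite case, with 4, 4 and 5 miRNA assignments but no enriched cluster among 9, 10 and 10. At its miR-125b-5p site, found in every library, the AGO2 clusters had log2 values of 0.26 (71 IP reads over 50), 1.11 (62 over 50) and 0.39 (17 over 31). Syt8 had no cluster, and Syt10, Syt12 and Syt15 had none that was enriched.

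Of the clusters of the Munc13 genes, which prime vesicles, 0.455%, 7.02% and 2.42% were enriched in WT and Mov10 Deletion replicates 1 and 2. Over all protein-coding genes the shares were 2.06%, 5.14% and 3.08%. Unc13a had 1 enriched cluster of 49 in WT and 19 and 5 of 81 in Mov10 Deletion replicates 1 and 2. The WT cluster and 5 of the Mov10 Deletion ones shared a stretch of 352 nt (chr8:71629097-71629448, minus strand) 4972 nt from the gene end, with best log2 values of 3.34 (60 IP reads over 5), 4.26 (44 over 4) and 3.58 (10 over 2). miR-124-3p was assigned in this stretch in every library, with scores of 21.7, 9.0 and 3.14. Unc13b had 0, 6 and 4 enriched clusters and Unc13c 0, 4 and 1. Unc13d, which acts in blood cells, had no cluster.

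The active zone scaffolds, most of them long genes, held the most clusters of any group. In WT and Mov10 Deletion replicates 1 and 2, 1.28%, 2.85% and 1.48% of these clusters were enriched. The shares over all protein-coding genes were higher, at 2.06%, 5.14% and 3.08%. Bsn (bassoon) had 6 enriched clusters in WT and 11 and 9 in Mov10 Deletion replicates 1 and 2. The most enriched member cluster of WT was in Bsn, 248 nt from the gene end (log2 5.61, 58 IP reads over 1), and replicate 2 was enriched in the same stretch (5.42, 18 over 1) while replicate 1 was not. Pclo (piccolo) had 1, 3 and 1, and the WT and replicate 2 clusters fell on a place 75574 nt from the gene end (chr5:14787757-14787891, plus strand) that was enriched in all libraries. There the log2 values were 4.80 (33 IP reads over 1), 5.35 (47 over 2) and 4.95 (13 over 1), and miR-124-3p was assigned with scores of 34.0, 17.3 and 8.0.

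Rims1, the RIM scaffold that links Rab3 to the release site, had 7 enriched clusters in WT and 19 and 11 in Mov10 Deletion replicates 1 and 2. A stretch of 780 nt (chr1:22782837-22783616, minus strand) 22542 nt from the gene start held 3, 7 and 5 of them, with best log2 values of 5.34 (48 IP reads over 1), 5.16 (41 over 2) and 4.58 (10 over 1). Erc2 (CAST), the longest member at 856263 nt, had 0, 16 and 6 enriched clusters among 507, 991 and 991. It had the most miRNA assignments of any member in every library (17, 27 and 14), of which 14, 9 and 4 were to miR-124-3p. Erc1 (ELKS) had 0, 4 and 1 enriched clusters. Rims4 had 0, 7 and 2 enriched clusters and no miRNA assignment in any library.

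Among the vesicle proteins, 3.79%, 5.42% and 3.15% of clusters were enriched in WT and Mov10 Deletion replicates 1 and 2. Over all protein-coding genes the shares were 2.06%, 5.14% and 3.08%. Of the 22 enriched WT clusters of this group, 13 were in Rab3c. The Rab3 genes differed in their counts and also in gene length and cluster number. Rab3c, a gene of 226810 nt, had 13 enriched clusters of 102 in WT, more enriched ones than any other member. In Mov10 Deletion replicates 1 and 2 it had 19 and 12 of 240. Rab3b had 2, 9 and 4 enriched clusters of 19, 38 and 38, without any miRNA assignment. Its best cluster in Mov10 Deletion replicate 2 had the highest log2 of any member there (6.06, 28 IP reads over 1). Rab3a, the main Rab3 of synaptic vesicles and a gene of 3906 nt, had 6, 7 and 7 clusters. A single one was enriched, in Mov10 Deletion replicate 1 (log2 3.44, 25 IP reads over 4). Rab3a also had a miR-124-3p site 156 nt from its gene end in every library (scores 6.07, 8.72 and 4.0). Syn1, a synapsin that tethers vesicles, had 4 enriched clusters, all in Mov10 Deletion replicate 1, whereas Syn2 had 3 in each library and Syn3 0, 16 and 11. Rab3d had 1, 3 and 1, and its best cluster in Mov10 Deletion replicate 1 had the highest log2 of that library (5.97, 36 IP reads over 1). Sv2a, the target of levetiracetam, had 2, 4 and 5, Sv2b 1, 0 and 1, and Sv2c 0, 8 and 2. Snap91 (AP180), an endocytic adaptor, had 3 enriched clusters in Mov10 Deletion replicate 1 alone and 5, 7 and 4 miRNA assignments, among them a let-7c-5p and a miR-103-3p site found in every library.

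Of the 35 members with a target cluster in every library, 7 were synaptotagmins, 7 active zone scaffolds and 7 vesicle proteins. Among those whose assignments are not given above, the active zone proteins Rims2 (9, 14 and 4 assignments in WT and Mov10 Deletion replicates 1 and 2), Rims3 (3, 4 and 1) and Erc1 (1, 4 and 3) had them in every library. The synapsins Syn1 (2, 4 and 1), Syn2 (6, 10 and 2) and Syn3 (4, 11 and 3) did so too, as did Sv2a (5, 3 and 2) and Sv2b (1, 2 and 2). Among the synaptotagmins they were Syt7 (4, 5 and 4), Syt14 (3, 6 and 2) and Syt16 (1, 8 and 1). Others were Stx16 (4, 7 and 2), Stx17 (1 each), Snap47 (5, 4 and 2), Vamp4 (4, 2 and 2), Stxbp5 (3, 7 and 5) and Unc13c (1 each). Bsn (9, 10 and 5), Pclo (8, 20 and 7), Rims1 (10, 13 and 10), Rab3c (10, 15 and 7) and Unc13a (6, 8 and 2) were among the 35 as well. So were Cplx1 (4 each), Vamp3 (5, 5 and 1), Syt5 (2, 4 and 1), Syt11 (4, 3 and 4) and Rab3a (3, 2 and 2). Mov10 Deletion replicate 2, with the fewest assignments over all genes (13468, against 22074 in WT and 30526 in replicate 1), had the fewest in many of these genes.

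**Figure D2:**
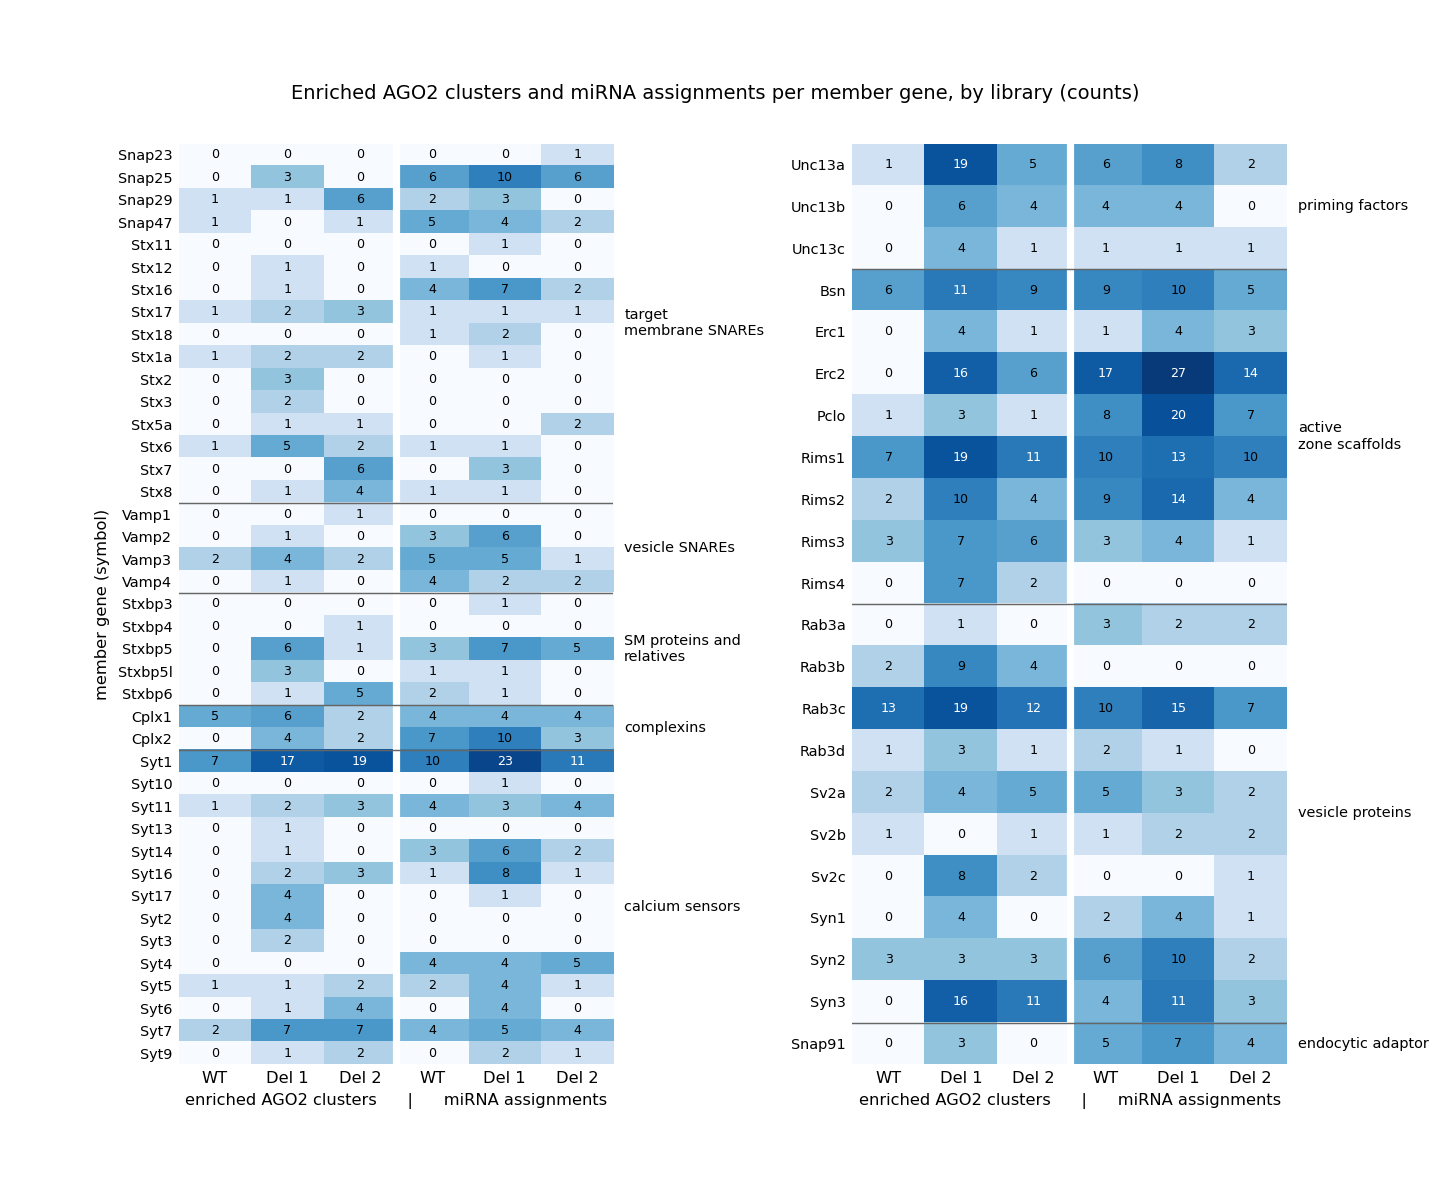
Counts of enriched AGO2 clusters (left block of each panel) and of miRNA assignments (right block) for release machinery genes. Columns are WT and the Mov10 Deletion replicates (Del 1, Del 2). Rows are genes grouped by role, the number is the count and the shade rises with it. The group marked calcium sensors holds all synaptotagmins, also those that do not bind calcium. Rab3c leads WT with 13 enriched clusters, and Erc2 has the most assignments in each library (17, 27 and 14).

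Joining enriched clusters of any library that lay within 200 nt of each other gave 239 enriched stretches in 59 members, and most were seen once. Of these, 199 were enriched in 1 library, 20 in 2 and 20 in all 3. Stretches were formed in members only, so no share over all protein-coding genes stands beside these counts. The 20 common stretches lay in 19 genes, since Rab3c had a pair. In 16 of the 20 (80.0%) a miRNA target cluster overlapped in some library, against 21 of the other 219 (9.59%). The common stretches were also longer, with a median of 419.5 nt against 89 nt, which leaves more room for an overlap, and per 1000 nt of stretch those with a target numbered 1.62 against 1.01. Of the 20, 9 ended within 3000 nt of the gene end. The 4 without a target cluster were in Rab3b, Rims2 and Syt7 and at the second place in Rab3c.

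**Figure D3:**
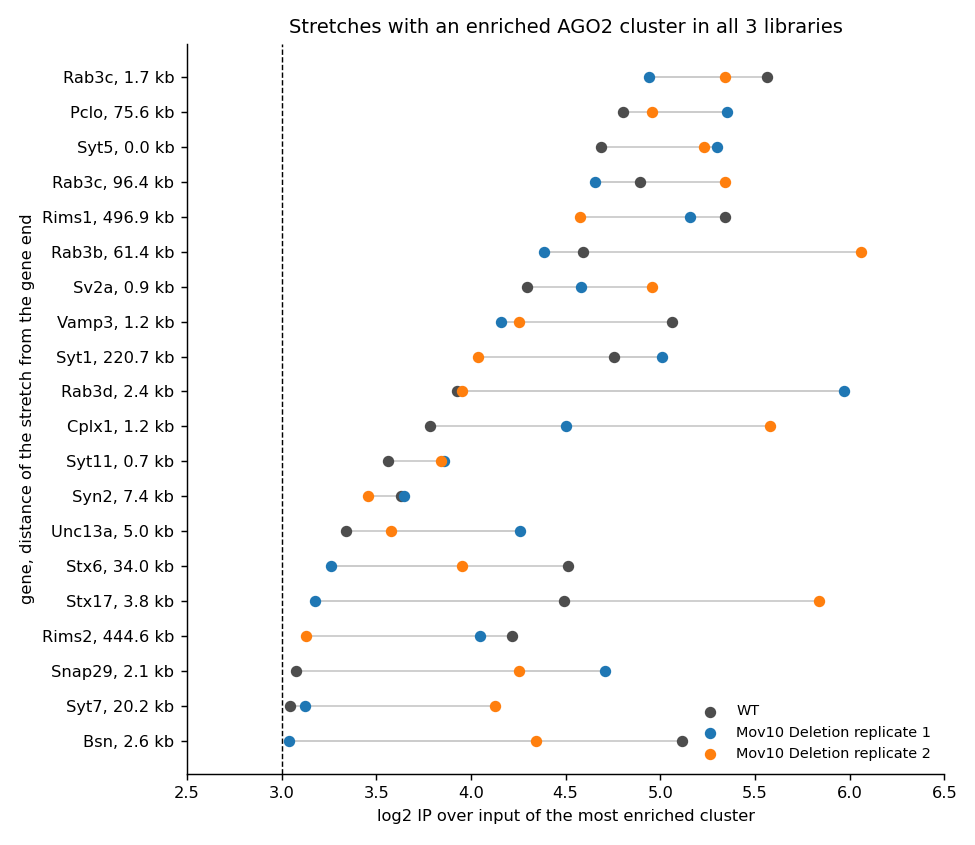
Log2 IP over input of the most enriched cluster (horizontal axis) in each stretch that was enriched in all 3 libraries (vertical axis, gene and distance of the stretch from the gene end). Points are libraries and the dashed line is the threshold of 3. The first Rab3c stretch, Pclo, Syt5, the second Rab3c stretch and Rims1 keep all points above 4.5, and the order of the libraries differs from stretch to stretch.

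Of the 20 common stretches, the best log2 was highest in WT in 6, in Mov10 Deletion replicate 1 in 8 and in replicate 2 in 6. It was lowest in WT in 9, in replicate 1 in 7 and in replicate 2 in 4. The first Rab3c stretch (5.56 in WT, against 4.94 and 5.34) was among those highest in WT, and Syt5 and Cplx1 were among those lowest in WT. A call in WT without one in Mov10 Deletion was seen in no member (0 of 70, which allows up to 5.13% by the exact interval), against 1.14% of protein-coding genes. The reverse, a call in each Mov10 Deletion library but none in WT, was seen in 15 of 70 members (21.4%, 12.5 to 32.9), against 13% of genes, a share within that interval. These were Cplx2, Erc1, Erc2, Rims4, Stx5a, Stx8, Stxbp5, Stxbp6, Sv2c, Syn3, Syt16, Syt6, Syt9, Unc13b and Unc13c. Only Cplx2, Rims4 and Syn3 of the 15 were enriched in the same stretch in both libraries. When every library needed 16 inferred IP reads, the lowest number behind a WT call, 5 of the 15 remained (Cplx2, Erc2, Rims4, Stxbp5 and Syt16), and 4 members (Snap29, Snap47, Stx6 and Sv2b) were then enriched in WT alone. Such a minimum removes no WT call by construction. The 15 could therefore only fall, and the number enriched in WT alone could only rise. Taking Mov10 Deletion replicate 1 by itself gave 32 members without a WT call in place of 15, and replicate 2 by itself gave 19. For the read minimum and the single replicates the share of all protein-coding genes was not computed, so these counts are not set against it.

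Single stretches were called in 1 genotype in both directions. In 11 stretches of 10 genes both Mov10 Deletion libraries had calls without WT, and in 7 stretches of 5 genes WT alone had them. Stretches were not formed over all protein-coding genes, so these counts are not set against a background and are not read as a trait of the members. In 7 of the 11 WT had a cluster at the same place, with best log2 values between 1.34 and 3.08. An example is Rims2 (chr15:39240387-39240502, plus strand), where WT had a log2 of 2.69 (69 IP reads over 9) and the Mov10 Deletion replicates 3.26 (33 over 6) and 3.48 (14 over 3). The WT stretches were 3 in Rims1 and 1 each in Snap47, Stx1a, Sv2b and Syt7. At the strongest of them (chr1:22467267-22467403 in Rims1) WT had a log2 of 4.56 (56 IP reads over 2) and the Mov10 Deletion replicates 2.4995 (39 over 12) and 2.52 (12 over 5). In Snap47 the WT cluster had a log2 of 4.34 (24 over 1), Mov10 Deletion replicate 1 had 1.61, and replicate 2 had 4.06 with a −log10 p of 2.93, just under the threshold.

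The miRNAs on release machinery genes followed those of the brain as a whole. Target clusters of members carried 197, 303 and 133 miRNA assignments in WT and Mov10 Deletion replicates 1 and 2. miR-124-3p took 85 of them in WT (43.1%, 36.1 to 50.4), against 43.5% in all protein-coding genes. In Mov10 Deletion replicates 1 and 2 it took 103 (34.0%, 28.7 to 39.6) and 51 (38.3%, 30.1 to 47.2), against 35.6% and 37.9%. The 3 member intervals overlapped. miR-9-5p, next in WT and Mov10 Deletion replicate 1 but not in replicate 2, had 20, 31 and 6 assignments, or 10.2%, 10.2% and 4.51%, against 9.28%, 6.70% and 6.89% in all protein-coding genes. miR-466i-5p had 15, 16 and 9, and miR-125b-5p 12, 14 and 8.

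The 18 miRNAs found on members in every library were picked by these same assignments, so miRNAs scarce on members were left out. This choice favours a higher share on members, and the directions below cannot be weighed against each other. Of 54 pairs of miRNA and library, the share in all protein-coding genes lay below the member interval in 5 and above it in none. These were miR-466i-5p in WT (7.61% on members against 4.11%), miR-9-5p, miR-135a-5p and miR-342-3p in Mov10 Deletion replicate 1, and miR-744-5p in replicate 2. No miRNA stood outside in all 3 libraries. By seed, the let-7 family (9 miRNAs with the seed GAGGUAG) had 10, 36 and 13 assignments on members, in 8, 17 and 11 genes. miR-466f-3p had 6, 5 and 4, miR-103-3p 4, 5 and 3, miR-135a-5p 3, 6 and 1, and miR-16-5p 3, 4 and 2. The other miRNAs found on members in every library, which had at most 5 assignments in any, were miR-128-3p, miR-342-3p, miR-181a-5p, miR-219a-5p, miR-301a-3p, miR-744-5p, miR-130a-3p and miR-496a-3p. Of the 98 miRNAs, 60 were seen in 1 library.

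**Figure D4:**
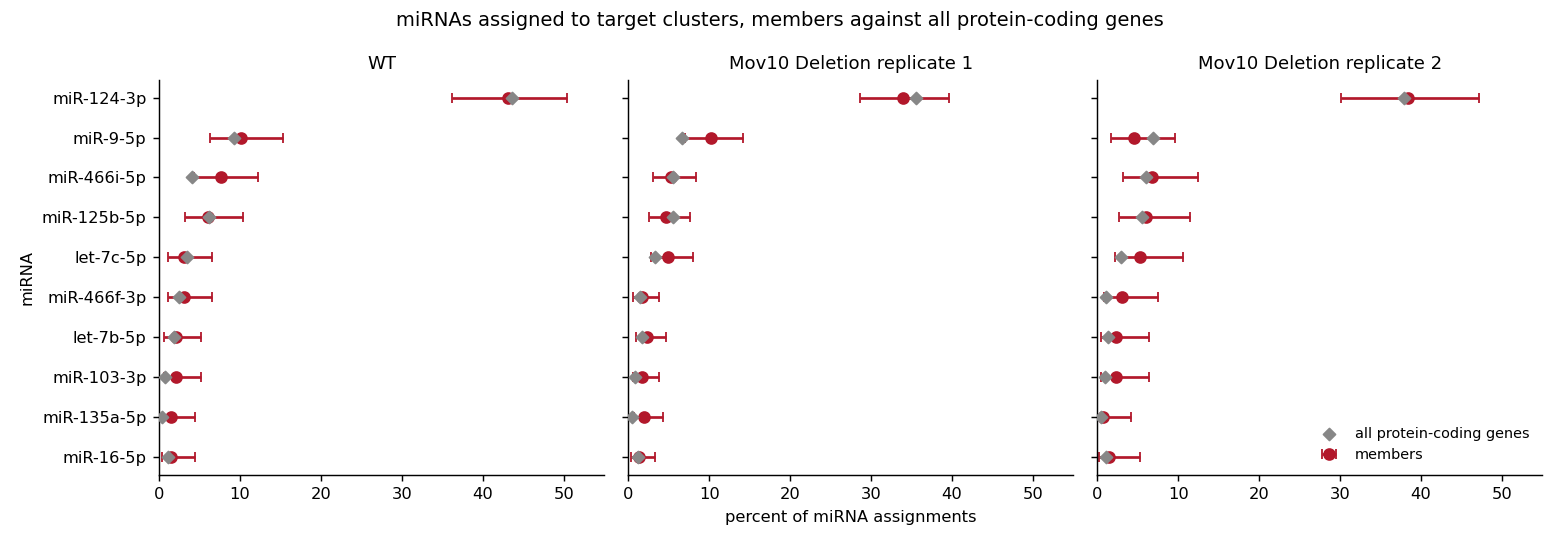
Percent of miRNA assignments (horizontal axis) given to each of 10 miRNAs (vertical axis) on release machinery genes (red circles, bars are exact 95% intervals) and on all protein-coding genes (grey diamonds), 1 panel a library. miR-124-3p leads in each panel with 34.0% to 43.1% on members, and most grey diamonds lie within the bars.

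Assignments were spread over many places. They fell on 511 distinct sites, a site being overlapping target clusters of the same miRNA in a gene, and 424 of these were found in 1 library, 58 in 2 and 29 in all 3. The 29 common sites lay in 19 genes, 15 of them were of miR-124-3p, and 10 were within 2000 nt of the gene end. Their scores were higher, with medians of 14.6, 9.0 and 6.53 in WT and Mov10 Deletion replicates 1 and 2, against 4.0, 4.0 and 3.81 at the other sites. WT alone had 116 sites, the Mov10 Deletion libraries shared 6 that WT lacked, and 308 were in a single Mov10 Deletion library. These numbers are not alike, since a site of WT alone needed 1 library and the 6 needed both Mov10 Deletion libraries. Sites were formed in members only, so no share over all protein-coding genes stands beside these counts. The agreement of target clusters between the Mov10 Deletion libraries was itself limited, as 44 member target clusters had identical coordinates of 273 and 125.

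Chimeric and AGO2 enrichment coincided at a minority of places. Of the assignments on members, 14.2% (9.66 to 19.9) lay on an enriched AGO2 cluster in WT, against 20.2% in all protein-coding genes. In Mov10 Deletion replicates 1 and 2 it was 12.5% (9.03 to 16.8) and 11.3% (6.45 to 17.9), against 14.8% and 13.6%. The WT share of all genes lay above the member interval, and the others lay within theirs. Of the 29 common sites, 5 were on an enriched cluster in each library. These were the sites of miR-219a-5p in Syt5 and of miR-124-3p in Pclo, Rab3c, Unc13a and Vamp3.

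Rab3c had both kinds of cluster near its end. Its first common stretch (chr13:110055850-110056728, minus strand) spans 879 nt and ends 1663 nt before the gene end, and held 5 enriched clusters in WT and 6 in each Mov10 Deletion library. The miR-124-3p site within it scored 5.31, 6.39 and 6.0 and lay on AGO2 clusters with log2 values of 4.98 (149 IP reads over 4), 4.27 (144 over 13) and 4.89 (62 over 5). A miR-9-5p site, 1812 nt from the gene end, scored 47.9, 42.6 and 14.2. It lay on clusters with log2 values of 2.51 in WT (142 IP reads over 21), 4.30 in Mov10 Deletion replicate 1 (113 over 10) and 3.65 in replicate 2 (42 over 8), so the WT cluster was not called despite its reads. The 7628-nt 3'UTR of the canonical Rab3c transcript holds no 7-nt match to the miR-9-5p seed (ACCAAAG), while 51.7% of the 211 canonical 3'UTRs of at least this length do. Shorter matches were not searched. A second common stretch (chr13:110150619-110151403) lies 96432 nt from the gene end, and had log2 values of 4.89 (176 IP reads over 5), 4.66 (29 over 2) and 5.34 (17 over 1) and no target cluster.

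**Figure D5:**
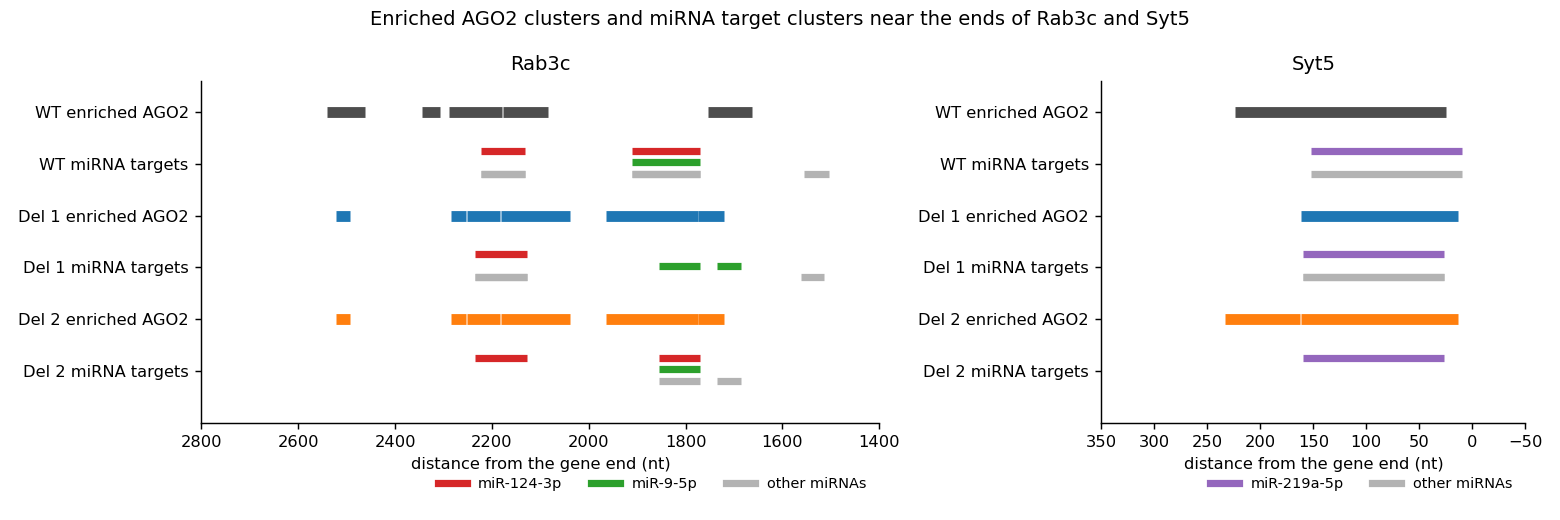
Positions of enriched AGO2 clusters and of miRNA target clusters in each library near the ends of Rab3c and Syt5, drawn by distance from the RefSeq gene end in nt (right is towards the end). Bars are clusters drawn to scale and colours of the target bars mark the miRNA. In Rab3c the miR-124-3p bar near 2180 nt and the miR-9-5p bar near 1812 nt are present in every library, and in Syt5 the miR-219a-5p bar overlaps the enriched cluster in each.

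Of the 77 placed members, 6 had no AGO2 cluster in any library (Cplx3, Cplx4, Stx19, Syt8, Unc13d and Vamp8), and 21 had no miRNA target cluster. A further 12 had clusters but none enriched, namely Snap23, Stx11, Stx18, Stx4a, Stxbp2, Stxbp3, Syt4, Syt10, Syt12, Syt15, Vamp5 and Vamp9. The 6 without a cluster include genes best known outside the brain, such as Vamp8 of exocrine glands and platelets. An absent cluster shows that none was listed, not that AGO2 did not bind. Hairpins of Mir6769b, Mir6992 and Mir5617 lie within Unc13a, Stx5a and Syn1, and no enriched cluster of their host genes fell on them.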

How the data were processed

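The members and lists were chosen with earlier results of these data known. AGO2 clusters and miRNA target clusters of 3 libraries were analysed. Per the methods, the authors extracted molecular identifiers with UMI-tools 1.1.1, trimmed with cutadapt 3.2 and mapped reads to mm10 with STAR 2.7.7a, after which PCR copies were collapsed and CLIPper was run to find clusters. miRNAs were matched with Bowtie 1.2.3. The authors deposited for each AGO2 cluster a log2 fold change (IP over input) with a −log10 p-value, and for each target cluster a miRNA and a score, which their text does not describe. Whether clusters were called per library is not given in the sources used here.

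Clusters were placed, with at least 1 nt shared on the same strand, in RefSeq gene bodies of GRCm38.p6 (mm10). Strands came from RefSeq promoters (61 members) or GENCODE vM39 (16 members). Exons and introns were not separated, and no coordinate was converted. Where genes overlap, each received the cluster. Distances run from the cluster midpoint, or the near edge of a stretch, to the gene end.

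IP and input reads were inferred as the whole numbers that fit both deposited values, with a constant per library (0.845, 1.74 and 2.39) that fitted 99.3%, 98.7% and 94.4% of tested clusters, 1 being the smallest input tried. All member enriched clusters were fitted. On simulated data 99.97% of enriched clusters in WT and 100% in each Mov10 Deletion library were recovered. The simulation used the same formulas and constants as the inference. It therefore checks the inversion alone and cannot show that the deposited p-values were computed in this way.

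Shares have exact Clopper-Pearson 95% intervals, which cover counting error only. Clusters of a gene are not independent replicates. Named genes were the core release genes, members enriched in 1 genotype or with a target cluster in all 3 libraries, the 5 with the highest log2 per library and members without clusters. Some of the core genes are not reported here. Genes named beyond these to describe a group were chosen after their values were seen. Enriched stretches and seed matches were also chosen after seeing the data. The 3'UTR sequences are those of GRCm39. Python 3.11.15, pandas 2.3.3, scipy 1.17.1 and matplotlib 3.10.9 were used.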

Additional observations from a re-analysis of the deposited data

How the results depend on the processing

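No paired analysis was possible because there was 1 WT library and no test between genotypes. Of 101 alternative values for 17 results, 67 stayed close to the reported value (counts within 1.5 times, shares within their interval) and 34 moved. Keeping only clusters in 1 gene, or with their midpoint in the gene, left every result equal or nearly equal. No enriched member cluster lay in overlapping genes, so the first of these could hardly move a value. The 67 is therefore no measure of robustness. With 16 inferred IP reads required, enriched members were 34 and 21 in Mov10 Deletion replicates 1 and 2, 19 in both, 5 in both and not WT and 4 in WT alone, and the member clusters enriched were 1.66% and 0.754%, while common stretches fell to 12. A −log10 p of at least 5 gave 35 enriched members in Mov10 Deletion replicate 1, 9 in both replicates and not WT, 1 in WT alone, and 1.66% and 1.095% of clusters. A log2 of at least 2 gave 3.05%, 5.69% and 3.34% of clusters in WT and Mov10 Deletion replicates 1 and 2. Clusters in the last 2000 nt gave 8, 20 and 11 enriched members in these libraries, 9 in both replicates, 7 in all 3 libraries and 2 in both replicates and not WT, with 8.62%, 16.3% and 8.95% of clusters enriched. The same window gave 21, 27 and 18 members with target clusters, and miR-124-3p shares of 32.7% in WT and 27.3% in replicate 2. Target clusters with a single miRNA gave 51.1% in WT, and a score of at least 5 gave 25 members in replicate 2. Leaving out either Mov10 Deletion replicate gave 42 to 53 members in place of both, 21 to 23 in place of all 3, 0 to 2 in WT alone and 19 to 32 outside WT. The window, the read minimum and the thresholds keep fewer or more clusters by their own construction. The numbers of members under these settings were not set beside all protein-coding genes. Depth limits every value, since total reads are unknown and calls over few reads turn on single input reads.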
